A study of Mus musculus with 71 samples.

Results

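Chromatin accessibility was compared between MUT and WT pMN progenitors on day 11 of differentiation, in 6 of the 71 libraries of the series. The 3 MUT libraries carried the title NFIAn and the 3 WT libraries the title NFIAp, read here as cells sorted without and with the transcription factor NFIA. The 6 libraries were chosen by genotype, population, day and fraction as their titles give them, and by no measured value. All cells were derived from mouse embryonic stem cells plated with bFGF, given 5 µM CHIR99021 from day 2, 100 nM RA with 10 nM SAG from day 3, and SAG alone from day 5. They were fixed, stained for proteins inside the cell and sorted, an assay named CaTS-ATAC. Genotype and NFIA fraction changed together on day 11, so their contributions cannot be told apart in these 6 libraries. The labels used here name neither the mutated gene nor the mouse strain nor the number of clones. They also do not say whether replicates were separate cultures, so p-values reflect the spread among the libraries used, and that spread may be technical.

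The pMN domain is a band of Olig2-expressing progenitors in the ventral spinal cord that produces motor neurons first and oligodendrocyte precursors later. The p2 and p0-p1 domains lie dorsal to it and produce interneurons before they, too, turn to glial cells. NFIA appears in these progenitors around the onset of gliogenesis and takes part in the switch from making neurons to making glia. In ATAC-seq a transposase cuts open DNA, so that the reads over an interval measure how accessible it was. In sorted bulk cells, fewer cells with an open interval and a lower signal per cell cannot be told apart.

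The deposited table gives normalised reads, which are counts divided by 1 size factor per library, over 155738 numbered intervals. It pairs these numbers with no gene and no chromosome position, so the intervals are described by number and no sequence was assigned to them. The MUT libraries held 21862409, 24465697 and 25971988 reads, and the WT libraries held 29293804, 26399692 and 29043816. Within MUT and within WT, the log2 values of replicates correlated with Pearson's r between 0.973 and 0.984 across intervals, which are not independent replicates. An interval was called when limma gave a Benjamini-Hochberg adjusted p under 0.05 over all 155734 tested intervals and the change on the log2(value + 5) scale was at least 1, which is 2-fold.

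The labels were checked on 5 consecutive intervals, Interval_143053 to Interval_143057, which are empty in MUT libraries of all days and were singled out after their values were seen. Their summed signal was 0, 0 and 0.933 normalised reads in the 3 MUT libraries, against 142, 155 and 182 in the 3 WT libraries. Across the series, 32 MUT libraries lay between 0 and 1.14 and 37 WT libraries between 142 and 375. The remaining pair went against its labels: the library labelled MUT D7 pMN replicate 3 had 263 and the library labelled WT D7 pMN replicate 3 had 0. A further library went against its population: replicate 2 of WT D9 p2 NFIAp showed a median of 51.3 normalised reads over intervals that were highest in WT pMN on day 9. The other p2 NFIAp libraries of that day had 23.5 and 22.5 there, and the pMN NFIAp libraries had between 51.4 and 68.3. None of these libraries is among the 6 compared, but all entered the shared estimate of spread. Without them, the counts of the day 11 comparison were 13174 lower and 5170 higher.

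Marker genes could not be looked up, so the population label was checked on 1074 intervals that were higher in WT pMN than in both other populations in the NFIAn fractions of day 9. Relative to p2 of their own genotype on day 11, the median log2 difference over these intervals was 0.92, 0.61 and 0.58 in the MUT pMN libraries and 0.52, 0.42 and 0.42 in the WT pMN libraries. Relative to p0-p1 it was 1.08, 0.79 and 0.74 in MUT and 0.68, 0.58 and 0.60 in WT. All 6 libraries were thus on the pMN side of both neighbours.

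Of the tested intervals, 13174 were called lower in MUT than in WT pMN (8.46%) and 5169 were called higher (3.32%). The lower intervals were both more frequent and more strongly changed. Their median log2 change was -1.71, with quartiles of -2.34 and -1.30 and an extreme of -6.04. The higher intervals had a median of 1.15, with quartiles of 1.06 and 1.30 and an extreme of 3.89, while the median over all tested intervals was 0.05. A change of at least 2 log2 units was reached by 3395 lower intervals between 2 and 3, 1157 between 3 and 4, and 319 beyond 4. Among the higher intervals, 34 lay between 2 and 3 and 1 lay beyond 3.

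**Figure D1:**
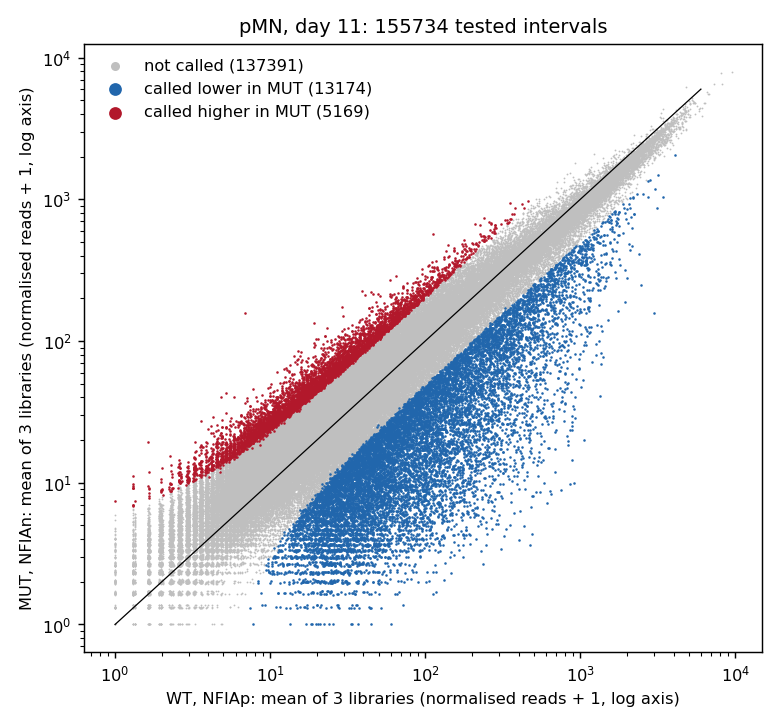
Mean level of each tested interval in the 3 MUT NFIAn libraries (vertical axis) against the mean in the 3 WT NFIAp libraries (horizontal axis), in normalised reads plus 1 on log axes, with the line of equality. The 13174 blue points called lower in MUT reach far from the line, down to a log2 change of -6.04, while nearly all of the 5169 red points called higher lie within 2 log2 units of it.

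The median level of the lower intervals was 16.3, 14.7 and 13.1 normalised reads in the MUT libraries, against 91.5, 72.6 and 65.9 in the WT libraries. They took 2.80%, 2.42% and 2.20% of all signal in the MUT libraries and 9.29%, 8.09% and 7.58% in the WT libraries. The lower and higher sets were called on these 6 libraries, so the choice fixed a gap between the groups on both measures. The median level of the higher intervals was 49.0, 45.1 and 44.8 normalised reads in MUT and 17.0, 17.6 and 17.6 in WT, and they took 1.79%, 1.63% and 1.62% of the MUT signal and 0.552%, 0.597% and 0.601% of the WT signal.

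All MUT libraries lay under all WT libraries in 13035 of the lower intervals, and all MUT libraries lay over all WT libraries in 5109 of the higher intervals. Over all tested intervals, the same held for 33281 (21.4%) and 33382 (21.4%), so most intervals without overlap changed by less than the threshold. Normalised totals were 23822123 to 24229606 in MUT and 26970767 to 27643967 in WT. With library totals made equal instead, 11221 intervals were called lower and 9076 higher, the median over all intervals moved to 0.19, and 44.7% of calls were higher in place of 28.2%.

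The 10 intervals with the largest decrease, among called intervals with a mean at or above the median and no overlap between the groups, were nearly empty in MUT and strong in WT. Over these 10, single MUT libraries held between 1.09 and 10.9 normalised reads, and single WT libraries held between 348 and 989. Interval_118950 had 9.81, 10.8 and 6.53 normalised reads in MUT, against 963, 899 and 878 in WT, a log2 change of -6.04 ± 0.31 (SE; limma, adjusted p = 1.5e-24). Interval_53741 had 10.9, 7.84 and 7.46 in MUT, against 989, 825 and 770 in WT (-5.98 ± 0.38, adjusted p = 1.9e-20). In both intervals every WT library lay far above every MUT library.

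Interval_131861 held 2.18, 1.96 and 3.73 normalised reads in MUT and 525, 457 and 441 in WT (-5.98 ± 0.31, adjusted p = 3.2e-24). Interval_87071 held 4.36, 3.92 and 1.87 in MUT and 539, 476 and 446 in WT, and Interval_125049 held 6.54, 9.80 and 7.46 in MUT and 882, 657 and 717 in WT. In Interval_125049 the lowest WT library was replicate 2, whereas in the intervals named before it was replicate 3. Interval_85483, Interval_122006, Interval_141170, Interval_85926 and Interval_145071 completed the 10, with log2 changes between -5.84 and -5.62.

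On day 9 all 10 were near empty in NFIAn cells of both genotypes. Their means lay between 1.37 and 9.76 normalised reads in MUT NFIAn and between 3.08 and 13.9 in WT NFIAn, while WT NFIAp cells had means between 6.56 and 48.7. Interval_118950 was the exception on day 5, with 91.8 ± 13.9 normalised reads in MUT (SD, n = 3) and 122 ± 20.4 in WT (SD, n = 2), and it was low in both genotypes on day 9, with 9.76 ± 0.149 in MUT and 10.9 ± 4.09 in WT NFIAn (SD, n = 2 each). In WT NFIAp cells of day 9 it had 43.9 ± 28.3 (SD, n = 3), a difference of 1.50 log2 units from WT NFIAn that was not called (adjusted p = 0.0804).

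**Figure D2:**
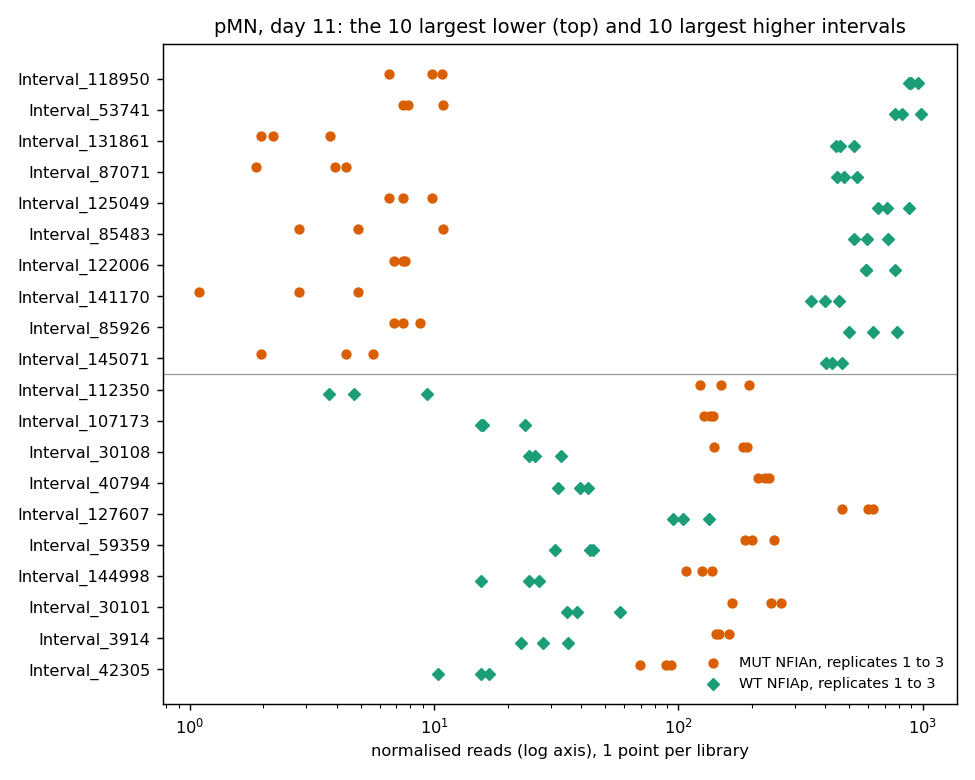
Normalised reads per library on a log axis for the 10 intervals with the largest decrease (top) and the 10 with the largest increase (bottom) in MUT pMN on day 11, with 3 MUT NFIAn libraries (circles) above 3 WT NFIAp libraries (diamonds). In the upper 10, MUT libraries lie at or under 10.9 and WT libraries at or over 348; in the lower 10 the order is turned and the gap is narrower.

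The 10 largest increases were smaller and differed more among themselves. Interval_112350 had 194, 150 and 123 normalised reads in MUT, against 4.72, 9.33 and 3.71 in WT, a log2 change of 3.89 ± 0.47 (SE; adjusted p = 5.4e-10). The others had log2 changes between 2.22 and 2.59. Interval_107173 followed with 135, 139 and 128 in MUT and 23.6, 15.6 and 15.8 in WT (2.59 ± 0.27, adjusted p = 4.5e-12).

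Several of the 10 largest increases were already called on earlier days. On day 5 Interval_112350 had a mean of 106 normalised reads in MUT and 5.45 in WT (log2 change 3.40, adjusted p = 0.00043), and on day 9 it had 148 in MUT and 7.75 in WT NFIAn (3.59, adjusted p = 7.4e-05). Of the 10 largest increases, 3 were called higher in MUT on day 5 and 5 on day 9, and all 10 had a change above 0 on both days. Of the 10 largest decreases, none was called on either of those days in limma's test (the smallest adjusted p was 0.356 on day 9 and 0.312 on day 5), and 7 had a change below 0 on day 9 and 5 on day 5.

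Interval_127607 was the strongest of the 10 increases, with 630, 599 and 469 normalised reads in MUT, against 95.3, 134 and 105 in WT (2.30 ± 0.27, adjusted p = 1.9e-10). Its mean was 412 in MUT and 258 in WT NFIAn on day 9, and 412 in MUT and 315 in WT on day 5. Neither of these differences was called. Interval_42305 had 93.7, 69.5 and 88.6 normalised reads in MUT and 10.4, 15.6 and 16.7 in WT on day 11, against means on day 9 of 479 in MUT and 274 in WT NFIAn. Both genotypes were thus lower there on day 11 than on day 9.

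Among the most accessible called intervals the changes were smaller. Interval_57118 had 1217, 1069 and 855 normalised reads in MUT and 3621, 3470 and 3136 in WT (-1.71 ± 0.25, adjusted p = 9.3e-08). Interval_57445 had 1585, 1471 and 1389 in MUT and 3343, 3153 and 2998 in WT (-1.09 ± 0.0782, adjusted p = 2.2e-18), after means on day 5 of 1410 in MUT and 1377 in WT. With equal library totals its change was -0.91 and with quantile normalisation -0.87, both under the threshold. Interval_22625, with 2517, 2076 and 1577 in MUT and 4433, 4327 and 3469 in WT, was at the threshold (-1.003 ± 0.19) and lost its call in 8 other settings. Interval_31213 was the most changed of the 3 most accessible higher intervals, with 915, 950 and 963 normalised reads in MUT and 343, 387 and 332 in WT (1.40 ± 0.14, adjusted p = 4.7e-13).

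The lower intervals as a set had low median levels in both genotypes until day 9. Their median level in MUT was 8.94 normalised reads on day 5, 10.3 on day 9 and 14.9 on day 11. In WT it was 8.67 on day 5, 18.0 (NFIAp) and 12.5 (NFIAn) on day 9, and 76.8 on day 11. Between days 9 and 11 this median rose more in WT than in MUT. The set was chosen for its gap on day 11, so a wide gap on that day was fixed by the choice. Over all tested intervals the median was 28.6 on day 9 and 30.4 on day 11 in MUT. In WT NFIAp cells it was 27.4 and 31.3. In the lower set, the NFIAp fraction of day 9 had an upper quartile of 46.3. Its median lay nearer to MUT day 11 than to WT day 11.

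Of the 13174 lower intervals, 7852 (59.6%) had a mean under 20 normalised reads in WT NFIAn cells on both day 5 and day 9, against 31.8% of all tested intervals. In NFIAn cells, intervals with a larger decrease from WT to MUT on day 11 had a lower median on day 9, but not in NFIAp cells. Those lower in MUT by between 1 and 2 log2 units had a median of 14.4 normalised reads in WT NFIAn cells on day 9 and 58.6 in WT on day 11. Those lower in MUT by more than 4 had 9.31 and 321. In WT NFIAp cells on day 9, the medians of the classes from the smallest to the largest decrease were 19.1, 15.3, 18.3 and 21.6.

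The higher intervals followed another course. Their median level in MUT was 35.02 normalised reads on day 5, 49.8 on day 9 and 46.5 on day 11. In WT it was 28.3 on day 5, 34.4 (NFIAp) and 32.1 (NFIAn) on day 9, and 17.3 on day 11. These intervals, too, were chosen for their day 11 gap. They had a higher median in both genotypes on days 5 and 9 than in WT on day 11. On day 11 WT was well below its own day 9 while MUT was close to it. Only 1206 of them (23.3%) were under 20 normalised reads in WT NFIAn cells on days 5 and 9.

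**Figure D3:**
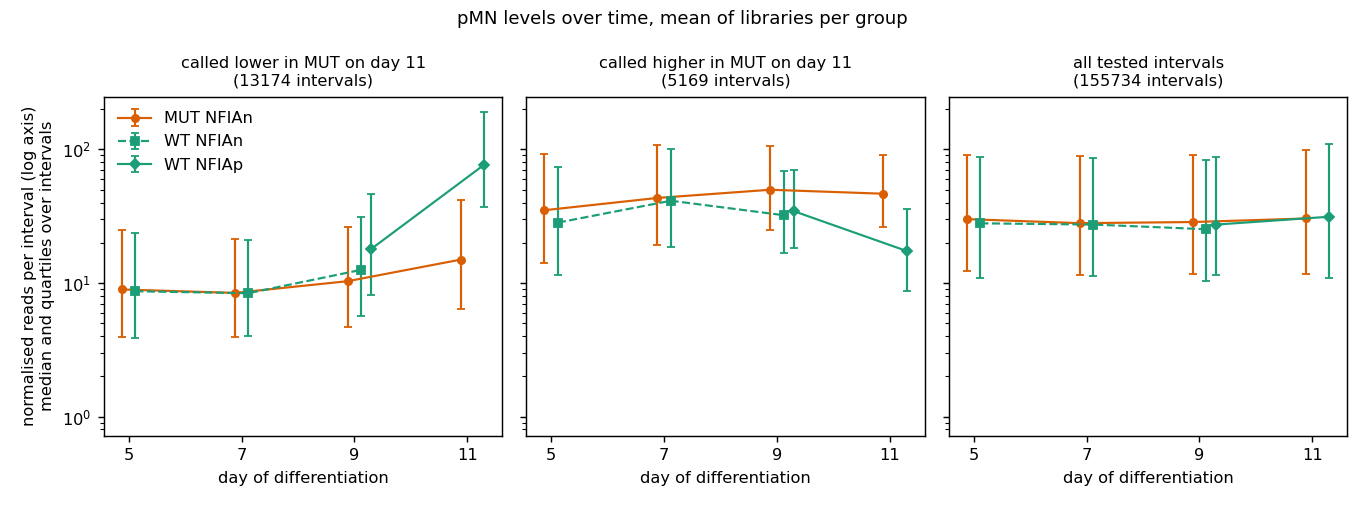
Level of intervals in pMN by day of differentiation, in normalised reads on a log axis, as medians with quartiles over intervals, for MUT NFIAn, WT NFIAn and WT NFIAp. In intervals called lower in MUT the lines lie close until day 9 and separate on day 11 (14.9 in MUT, 76.8 in WT). In intervals called higher WT is lower on day 11 (46.5 in MUT, 17.3 in WT). Both sets were chosen on the day 11 difference. Each day 7 group holds 1 library that goes against its label.

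Day 9 offered the genotype comparison with the NFIA label held, in 4 libraries that the day 11 comparison did not use. No MUT library of the series is labelled NFIAp, whereas WT pMN of day 9 was split into NFIAn and NFIAp. Whether the NFIAn fractions of MUT and WT hold matching cells was not tested. In this comparison, 761 intervals were called lower in MUT NFIAn than in WT NFIAn pMN (0.489%) and 1893 were called higher (1.22%). Of the 761 lower on day 9, 574 were also called lower on day 11 (75.4%, and 4.36% of the day 11 list), against 8.46% of all intervals. Of the 1893 higher on day 9, 409 were also called higher on day 11 (21.6%, and 7.91% of the day 11 list), against 3.32% of all intervals. In a fit without the long shifted blocks given below, 479 were called lower on day 9, of which 383 were on the day 11 list. In that fit 1448 were called higher on day 9, of which 325 were on the day 11 list.

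Both sets leaned on day 9 in their day 11 direction. The lower intervals had a median change of -0.13 on day 9, and 62.0% were below 0, against 44.0% of all tested intervals. The higher intervals had a median change of 0.51, and 90.7% were above 0, against 56.0%. The number called on day 9 rested on single libraries: it was 190 without WT replicate 1, 548 without MUT replicate 2, 1516 without MUT replicate 1 and 4886 without WT replicate 2, against 2654 with all 4. With quantile normalisation, 42.3% of the day 9 calls were higher in place of 71.3%.

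On day 5, 22 intervals were called lower in MUT pMN (0.0141%) and 68 were called higher (0.0437%). Of these, 16 of the 22 were also called lower on day 11 (72.7%, against 8.46% of all intervals). Of the 68, 28 were also called higher (41.2%, against 3.32%). In a fit without the long shifted blocks given below, day 5 had 11 lower and 52 higher calls. The set called lower on day 11 had a median change of 0.04 on day 5, the same as all tested intervals, and the set called higher had 0.22. On day 7 the medians were 0.02 and 0.07, and 0.01 and 0.21 without the libraries that went against their labels. The day 5 total of 90 was 9 without WT replicate 1, 12 without WT replicate 2, 29 without MUT replicate 3, 32 without MUT replicate 2 and 145 without MUT replicate 1.

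The NFIA fractions could be compared within WT pMN on day 9, again in other libraries. There, 19 intervals were called higher in NFIAp than in NFIAn cells (0.0122%), with log2 changes between 1.05 and 2.27. Of these 19, 15 were called lower in MUT on day 11, against 8.46% of all tested intervals. None of the 19 was called higher, against 3.32%, and their median change on day 11 was -2.43. Across the 13174 lower intervals, the median difference of NFIAp over NFIAn on day 9 was 0.34, and 81.4% were above 0, against 53.0% of all tested intervals. Across the 5169 higher intervals the median was 0.04.

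The size of this lean grew with the day 11 difference. The median of NFIAp over NFIAn on day 9 was 0.28 in intervals that were lower in MUT by between 1 and 2 log2 units on day 11. It was 0.76 in those that were lower by more than 4. Over the same classes, the median of MUT over WT NFIAn on day 9 was -0.08 and -0.33. Both day 9 comparisons use the same WT NFIAn libraries, so these values are not independent of each other. The 19 calls became 0 without WT NFIAn replicate 2, 1 without WT NFIAp replicate 1, 41 without WT NFIAp replicate 2, 106 without WT NFIAp replicate 3 and 141 without WT NFIAn replicate 1. With only the 5 libraries compared in the fit, limma called 0 (17063 at an unadjusted p under 0.05), against 18 with edgeR over all groups. With the replicate number as a block, limma called 2912 in those groups (2676 higher, 236 lower) and 288 across all libraries. Without the libraries that went against their labels it called 251. Whether same-numbered NFIAp and NFIAn libraries were pairs was not tested. With NFIAn replicate 2 left out, 9730 intervals had an unadjusted p under 0.05, against 15219 with all 5 libraries.

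The same genotype comparison on day 11 was made in p2 and in p0-p1, with the NFIA fraction again changing along with the genotype. In p2, 12228 intervals were called lower in MUT (7.85%) and 3958 higher (2.54%), and in p0-p1, 10226 were called lower (6.57%) and 1832 higher (1.18%). Of the pMN lower intervals, 10518 were also called lower in p2, which is 79.8% of the pMN list and 86.0% of the p2 list. In p0-p1 it was 7709, or 58.5% of the pMN list and 75.4% of the p0-p1 list. Of the higher intervals, 1655 were shared with p2 (32.0% of the pMN list, 41.8% of the p2 list) and 579 with p0-p1 (11.2% and 31.6%). The direction was shared more widely than the call: 98.8% of the lower intervals were below 0 in p2 and 97.3% in p0-p1, and 98.7% and 93.9% of the higher intervals were above 0 there.

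Changes in pMN and p2 were close in size. The pMN lower intervals had a median of -1.71 in pMN, -1.60 in p2 and -1.15 in p0-p1, and the pMN higher intervals had 1.15, 0.85 and 0.58. The intervals were chosen on the pMN values, which favours the pMN side in such a list. Across all 155734 intervals, the pMN change correlated with Pearson's r of 0.879 with the p2 change and 0.771 with the p0-p1 change, as a description of intervals measured in libraries of 1 series with 1 normalisation.

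Whether the genotype difference itself differed between populations was tested directly. Against the mean of p2 and p0-p1, the pMN difference was more negative in 649 intervals (0.417%) and more positive in 78 (0.0501%). Against p2 alone it was more negative in 110 (0.0706%) and more positive in 6 (0.00385%). Against p0-p1 alone it was more negative in 1695 (1.09%) and more positive in 869 (0.558%). Among the 13174 lower intervals, 578 were called more negative against the mean of both. These intervals were chosen on the pMN difference, which is part of this contrast, so the choice favoured the negative side. The total of 727 was 151 without WT pMN replicate 1, 353 without MUT pMN replicate 3 and 408 without MUT pMN replicate 2. The total of 116 against p2 was 18, 41 and 52 without the same libraries, 60 and 55 without MUT p2 replicates 1 and 2, 49 and 55 without WT p2 replicates 2 and 3, and 201 without WT pMN replicate 3. The total of 2564 against p0-p1 was 1229 without WT pMN replicate 1 and 3892 without WT p0-p1 replicate 3. With pseudocounts of 1 and 20 the totals were 52 and 353 against p2 and 1002 and 2716 against p0-p1, and with library weights they were 2072 and 9522.

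The 3 most negative of these, by the naming rule, were open in WT pMN and near empty in MUT pMN on day 11. Interval_116257 had 0, 3.92 and 2.80 normalised reads in MUT pMN, against 132, 59.1 and 31.6 in WT pMN, while p2 had means of 5.10 in MUT and 3.60 in WT and p0-p1 had 3.50 and 4.31. Its pMN difference exceeded that of the other populations by -3.32 ± 0.36 log2 units (SE; limma, adjusted p = 2.1e-08) with WT libraries that differed widely among themselves. Interval_39584 had 5.45, 5.88 and 4.66 in MUT pMN and 116, 118 and 120 in WT pMN, against means of 5.00 in MUT and 12.7 in WT p2 (-3.00 ± 0.34, adjusted p = 7.9e-08).

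Interval_48488 had 13.1, 13.7 and 8.40 normalised reads in MUT pMN and 251, 157 and 117 in WT pMN, with a difference of -2.99 ± 0.39 (adjusted p = 2.2e-06). None of the 3 was called between the genotypes on day 9 (the smallest adjusted p was 0.513), and WT pMN NFIAp cells of that day had means of 4.71, 18.4 and 10.1 normalised reads there. On day 11 the means in p2 and p0-p1 of both genotypes were at or under 23.5 in all 3.

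In the other direction the largest was Interval_108826, with 113, 116 and 56.9 normalised reads in MUT pMN and 46.2, 49.8 and 22.3 in WT pMN, and a difference from the other populations of 1.64 ± 0.40 (adjusted p = 0.032). Replicate 3 was the lowest library in both genotypes, and in p0-p1 the interval averaged 75.7 ± 28.8 in MUT and 143 ± 88.2 in WT (SD, n = 3 each). Interval_49090 had 98.1, 113 and 96.1 in MUT pMN and 17.9, 24.9 and 14.9 in WT pMN (1.60 ± 0.28, adjusted p = 0.000735). It was also called higher in MUT p2, by 1.02, while its change in p0-p1 was 0.11 and not called. Interval_47012 had 95.9, 69.5 and 101 in MUT pMN and 32.1, 33.2 and 52.9 in WT pMN (1.50 ± 0.38, adjusted p = 0.046), with p2 at means of 21.0 in MUT and 28.4 in WT. The day 11 pMN change itself was close to the threshold in Interval_47012 (1.09) and Interval_108826 (1.18), and fell under it in 5 and 2 other settings. Interval_49090 alone of the 3 was also called higher in MUT on day 9, by 1.22 (adjusted p = 0.0072).

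Lists drawn from libraries outside the day 11 pMN comparison described where its calls fell. From day 5 to day 11, 30334 intervals rose in both WT p0-p1 and WT p2, where the fraction also changed from NFIAn to NFIAp. Of these, 8898 were called lower in MUT pMN (29.3%, against 8.46% of all tested intervals) and 752 higher (2.48%, against 3.32%). These 8898 made up 67.5% of all lower intervals. The list had a median change of -0.30, with quartiles of -1.22 and 0.22, so the upper quartile lay above 0. Of 21937 that fell in both populations, 75 were called lower (0.342%) and 1073 higher (4.89%).

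A further list was chosen for showing no call between the genotypes elsewhere, and the choice bears on its median in pMN. This list held 20387 intervals that rose in WT p0-p1 and p2 and were called between the genotypes in neither. Of these, 943 were called lower in pMN (4.63%) and 456 higher (2.24%), against 8.46% and 3.32% of all tested intervals. The median change of the list was -0.00. Its median level in pMN on day 11 was 70.5 normalised reads in MUT and 69.8 in WT, after 15.8 and 14.4 on day 5. Of 7726 intervals called lower in MUT in both p0-p1 and p2, 7321 were called lower in pMN (94.8%), with a median change of -2.09. Of 635 called higher in both, 374 were called higher in pMN (58.9%).

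Lists were also drawn from the NFIA fractions of p2. Of 5676 intervals higher in NFIAp than in NFIAn p2 on day 9, 2211 were called lower in MUT pMN on day 11 (39.0%, against 8.46% of all tested intervals) and 90 higher (1.59%, against 3.32%), with a median change of -0.46. Of 4720 that were lower in NFIAp p2, 80 were called lower (1.69%) and 222 higher (4.70%), with a median of 0.25. Both lists were made without the p2 library that had the pMN levels given above.

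Intervals that set the populations apart on day 9 were called in both directions. Of the 1074 that were highest in WT pMN, 120 were called lower in MUT pMN on day 11 (11.2%) and 180 were called higher (16.8%), against 8.46% and 3.32% of all tested intervals. Their median change was 0.34, with quartiles of -0.32 and 0.82. The lists that were highest in p2 (1880 intervals) and in p0-p1 (2598) had 4.57% and 6.16% called lower, 3.46% and 3.31% called higher, and medians of 0.19 and 0.14.

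Within WT pMN itself, 16755 intervals rose from day 5 to day 9 in NFIAn cells. Of these, 11.95% were called lower in MUT on day 11 and 6.10% higher, against 8.46% and 3.32% of all tested intervals. The median change over the list that rose was 0.11. Of 22782 that fell over the same days, 2.80% were called lower and 3.51% higher. These lists overlap with those from p0-p1 and p2, and the difference between their shares was not tested.

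**Figure D4:**
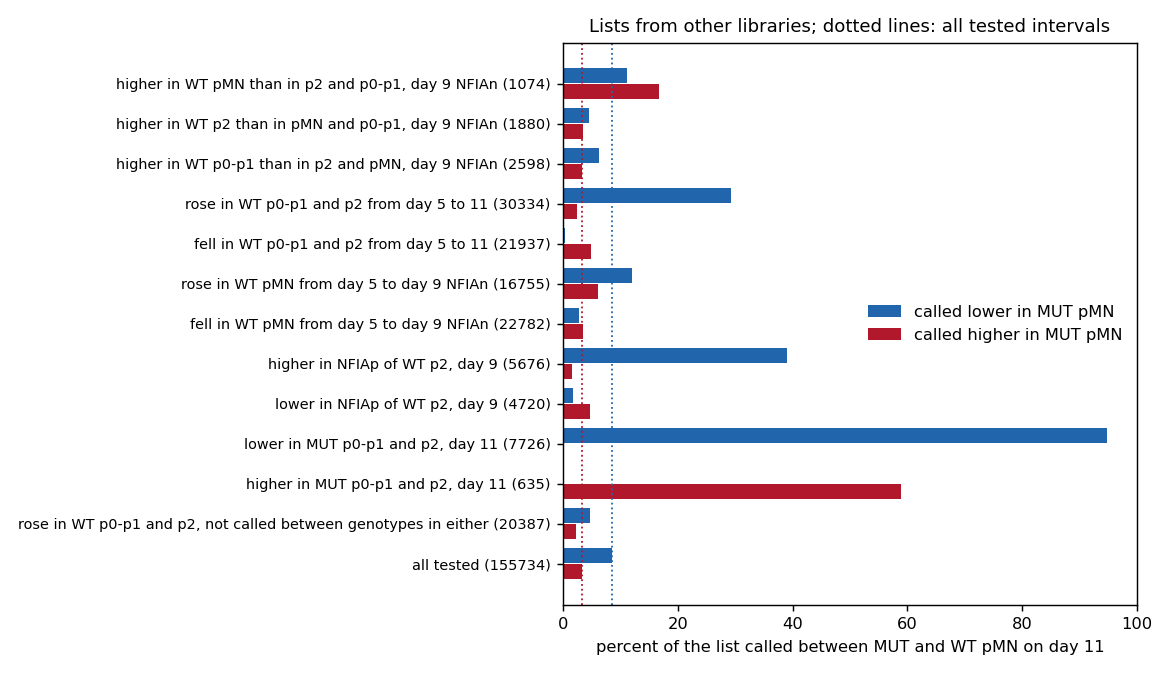
Share of each list called lower (blue) and higher (red) in MUT pMN against WT pMN on day 11, in percent, with list sizes in brackets and dotted lines at 8.46% and 3.32% for all tested intervals. The list lower in MUT p0-p1 and p2 reaches 94.8% lower, the list higher in NFIAp p2 39.0% lower and the list that rose in WT p0-p1 and p2 29.3% lower.

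Called intervals lay next to each other more often than the share over all intervals. The next-numbered interval was called in the same direction after 12.7% of the lower intervals, against 8.46% of all intervals, and after 7.91% of the higher intervals, against 3.32%. There were 196 runs of at least 3 consecutive lower intervals and 11 of at least 5, and 41 and 4 such runs of higher intervals. The longest lower runs were Interval_135453 to Interval_135459 (7 intervals) and Interval_1522 to Interval_1527 (6 intervals). Summed over the first of these, MUT libraries had 138, 113 and 64.4 normalised reads, against 419, 337 and 297 in WT.

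The longest higher run, Interval_112327 to Interval_112332, had sums of 575, 540 and 474 normalised reads in MUT and 160, 180 and 168 in WT. The same stretch of numbers holds Interval_112350, the largest increase of all. The run's median change was already 1.12 on day 5 and 1.04 on day 9, and it was 1.38 in p2 and 1.38 in p0-p1 on day 11. The next, Interval_40295 to Interval_40299, had sums of 450, 367 and 323 in MUT and 181, 152 and 153 in WT.

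The densest stretch of 50 consecutive numbers, chosen after the values were seen, was Interval_135450 to Interval_135499, where 37 intervals were called lower, against a median of 4 over all such stretches. Summed over it, MUT libraries had 2491, 1959 and 1436 normalised reads and WT libraries had 8342, 8658 and 7942. Its median change was -1.20 in pMN, -1.25 in p2 and -0.90 in p0-p1. On day 9 the median over it was -0.46 for MUT over WT NFIAn and 0.48 for NFIAp over NFIAn in WT, and on day 5 it was -0.09. The lower calls were thus spread over most of the stretch.

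**Figure D5:**
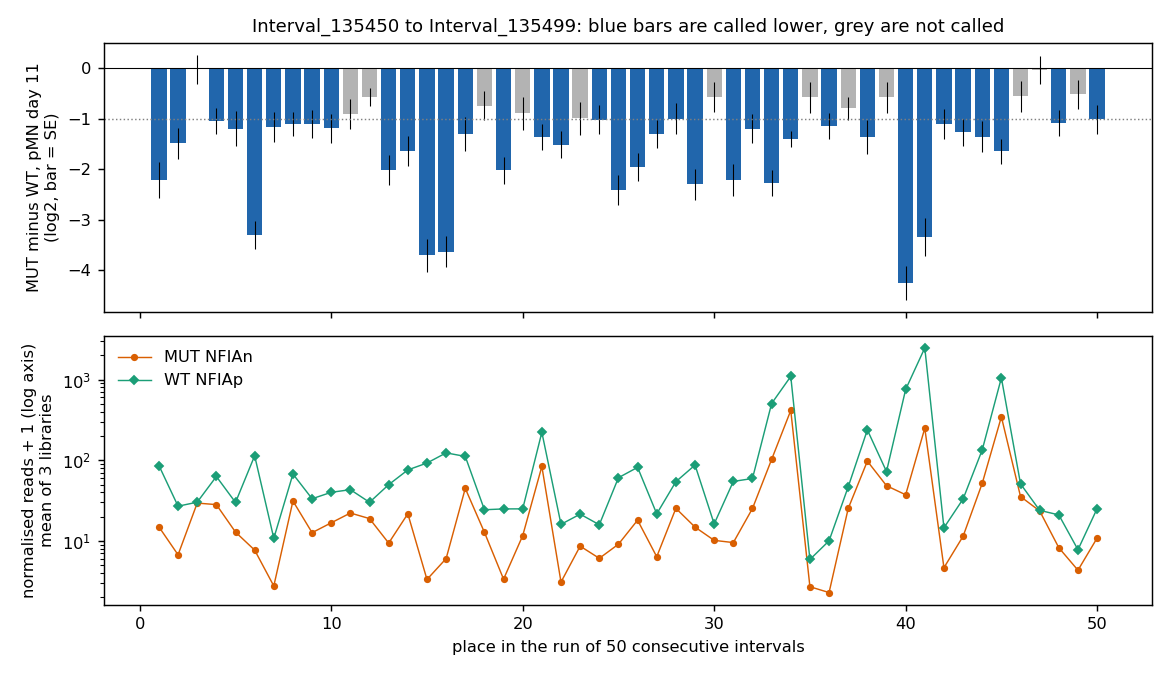
The 50 consecutive intervals Interval_135450 to Interval_135499 in order of number. The upper panel shows the log2 change of MUT over WT pMN on day 11 with its SE (blue where called lower, 37 of 50), and the lower panel shows the mean of 3 libraries in MUT NFIAn and WT NFIAp in normalised reads plus 1 on a log axis, with MUT below WT along most of the stretch.

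Among higher intervals the densest stretches, also chosen after the values were seen, were Interval_107141 to Interval_107190 and Interval_112301 to Interval_112350, with 21 called in each against a median of 1. Summed over the first, MUT libraries had 4366, 3926 and 4190 normalised reads and WT libraries had 2103, 1996 and 1871. Both were also shifted before day 11, with median changes of 0.86 and 0.83 on day 9 and 0.51 and 0.79 on day 5. This set them apart from the densest lower stretch, whose change was small on day 5.

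Long blocks of consecutive numbers had shifted medians between the genotypes on days 5 and 9, averaged over the 3 populations. Interval_18597 to Interval_29336 (10740 intervals) and Interval_134445 to Interval_143684 (9240) had median changes of -0.14 and -0.14 in pMN on day 11, with 1031 (9.60%) and 974 (10.54%) called lower and 136 (1.27%) and 128 (1.39%) called higher. Interval_40038 to Interval_41115 (1078) had a median of 0.30, with 70 (6.49%) called lower and 114 (10.6%) higher. Over all tested intervals, 8.46% were called lower and 3.32% higher. These blocks hold the genotype run, the densest lower stretch, Interval_22625, Interval_141170, Interval_40794 and the higher run from Interval_40295 to Interval_40299. In the block with that run, the median genotype shift on days 5 and 9 was 0.39. Among the 134676 intervals outside them, 11099 were called lower and 4791 higher, with a median change of 0.07.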

How the data were processed

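Accessibility was measured by ATAC-seq in 71 libraries of 26 groups. The authors deposited 1 table of signal values per interval, which are read counts divided by a size factor per library; low values fell on equal steps, and 100% of them gave whole reads within 0.01. The labels name the build mm10, per the submitters' processing notes. The aligner, the peak caller and the counting tool are not given in the sources used here.

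An interval was tested when 2 or more libraries reached a value of 10 (155734 of 155738). limma 3.58.1 in R 4.3.3 was fitted with a trend to log2(value + 5), with 1 mean per group and 45 residual degrees of freedom, and p-values were adjusted by Benjamini-Hochberg. The pseudocount understates the change of low intervals. At the median interval mean of 31.8 normalised reads, counting error alone was 17.7%. Levels and lists were summarised with pandas 2.3.3 and numpy 2.4.6 in Python 3.11.15. Alternatives were other pseudocounts, filters and scalings, edgeR 4.0.16 on the recovered reads, replicate blocks, library weights and leaving out libraries.

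Named intervals were the 10 largest changes in each direction among called intervals with a mean at or above the median and no overlap between groups, the 3 most accessible called in each direction, the 3 largest differences between populations in each direction, and the ends of the longest runs. The members and lists were chosen with earlier results of these data known. Blocks of numbers were found from a running median over 501 intervals that deviated by 0.12 over at least 1000 intervals.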

Additional observations from a re-analysis of the deposited data

Results flagged for a closer look

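The genotype difference on day 11 was itself tested between populations. It differed between pMN and the mean of p2 and p0-p1 in 727 intervals, between pMN and p2 in 116, and between pMN and p0-p1 in 2564 (limma, adjusted p under 0.05 and a difference of at least 1 log2 unit). Among the named intervals, the pMN difference was more negative in Interval_116257 by -3.32, in Interval_39584 by -3.00 and in Interval_48488 by -2.99 log2 units. It was more positive in Interval_108826 by 1.64, in Interval_49090 by 1.60, in Interval_47012 by 1.50 and in Interval_127607 by 1.28. Without WT D11 pMN replicate 1, the 727 became 151 and the 116 became 18.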

How the results depend on the processing

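Against 13174 lower and 5169 higher calls, a pseudocount of 20 gave 8781 and 1076 (9857 in all) and a mean value of at least 30 gave 4975 and 3186 (8161 in all). Higher calls numbered 10971 with a pseudocount of 1, 9076 with equal library totals, and 10444 and 11267 with edgeR under the deposited and the TMM factors. Leaving out 1 library gave 11978 to 14401 lower, 4852 to 6595 higher and 17563 to 20185 calls in all. Same-numbered MUT and WT libraries had residual correlations of 0.248, 0.031 and 0.293, so the numbers were not taken as pairs, though each library correlated best with its own number; the replicate block across all libraries gave 13174 lower and 5171 higher.

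The 727 differences between populations became 273 with a pseudocount of 1, 237 with a mean of at least 30, 451 with quantile normalisation, 1897 with the replicate block in the compared groups, 3441 with library weights, 417 and 447 with edgeR, and 151 to 945 without 1 library. The 116 against p2 and 2564 against p0-p1 became 34 and 893 with a mean of at least 30, 31 and 1563 with only the compared groups, 974 and 5844 with the replicate block in those groups, 156 and 3108 with it across all libraries, and 45 and 1607 with edgeR. The 2654 day 9 calls became 805 with a pseudocount of 20, 561 with only the compared groups, 4247 with the replicate block in those groups, and 190 to 4886 without 1 library. The 90 day 5 calls became 151 with a pseudocount of 1, 505 with only the compared groups, 455 and 275 with the replicate block in those groups and across all libraries, 676 with weights, 243 without the libraries in doubt, and 9 to 145 without 1 library. The 19 NFIA calls became 10 and 86 with pseudocounts of 1 and 20, 8 with a mean of at least 30, 0 with only the compared groups (limma; 17063 at an unadjusted p under 0.05, and 18 calls with edgeR over all groups), 2912 (2676 higher, 236 lower) and 288 with the replicate block in those groups and across all libraries, 31 with weights, 251 without the libraries in doubt, and 0 to 141 without 1 library. The cause of these changes was not tested, and a lone library left in a group was assumed to vary like the other groups.

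Of 786 refitted values of named intervals, 753 kept their direction and call, 33 lost the call and none was reversed. Over all settings the lower intervals had a median of -0.24 to -0.06 on day 9, and the higher intervals 0.36 to 0.58.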
